A study of Canis lupus familiaris with 55 samples.

Results

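Expression of FGF9, of 4 FGF receptors and of 5 genes that respond to FGF signaling was followed in canine embryonic gonads between gestational days (d) 34 and 44. The 10 genes were FGF9, FGFR1, FGFR2, FGFR3, FGFR4, SPRY1, SPRY2, SPRY4, ETV5 and DUSP6, chosen by name, and each was taken as the locus that carried its name among the 58781 loci assembled from these libraries. Of the 10, 9 were found under their own symbol, and FGFR2 was found under FGFR2IIIC, which RefSeq lists as a synonym.

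The study compared gonads of SRY-negative XX embryos, from a dog pedigree with inherited XX disorder of sex development (DSD), with age-matched ovaries, and with the testes of XY embryos. RNA-seq was done on 55 libraries, of which 53 each held the gonad pair of 1 embryo and the other 2 were pools of d34 gonads. The XX DSD embryos carried a single guanine inserted on dog chromosome 9, in a mixed American cocker spaniel and beagle pedigree. Which of them would have developed DSD is unknown.

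The XX DSD gonads formed 3 groups. At d35 there were 9 libraries from 4 litters (4 homozygous and 5 heterozygous for the insertion), at d37-39 there were 8 from 4 litters (6 homozygous, 2 heterozygous), and at d41-44 there were 6 from 4 litters, all homozygous. XY littermates carried the insertion too and form testes. They gave 4 libraries at d35 (3 homozygous, 1 heterozygous), 5 at d37-39 (all homozygous) and 3 at d41-44 (1 homozygous, 2 heterozygous). At d41-44 genotype therefore differed in part between the sexes of the DSD pedigree. Beagle controls without the insertion gave 6 XX and 6 XY libraries at d37-39 from 2 litters, and 3 XX and 3 XY libraries at d44 from 1 litter, and the d34 pools, 1 library per sex, are also controls. Insertion genotypes and litters come from the study's table of embryos, and the other labels from the deposited descriptions. The paper states that pooling for sequencing followed group, at risk or control. Pedigree and sequencing pool therefore cannot be told apart in XX gonads, and the pool of the XY littermates is not stated. The d41-44 XX DSD gonads were also younger on the whole than the d44 controls, since only 1 of the 6 was of d44. All 3 XY littermates of d41-44 were younger than the XY controls of d44 (1 of d41 and 2 of d42).

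FGF9 is a secreted fibroblast growth factor. In mouse gonads it is known for favoring the testis over the ovary program, acting against WNT4 signaling and through FGFR2. FGF receptors are tyrosine kinases that signal through RAS and the MAP kinases. Active signaling induces its own inhibitors, among them the Sprouty proteins (SPRY1, SPRY2, SPRY4) and DUSP6, a phosphatase that removes phosphate from ERK, as well as ETV5, a transcription factor of the ETS family. For this reason the Sprouty genes, ETV5 and DUSP6 are commonly read as a record of FGF and related receptor signaling.

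On CanFam3, FGF9 lay on chromosome 25 at 16630210-16665826 (minus strand, 12 assembled transcripts, of which 1 was the annotated transcript with 3 exons). FGFR1 was at 16:27028979-27078359 (plus strand), FGFR2 at 28:31303479-31411575, FGFR3 at 3:62308897-62319217 and FGFR4 at 4:36241072-36256241, these 3 on the minus strand. SPRY1 (19:16966735-16980480), SPRY2 (22:33365987-33371102), SPRY4 (2:37199883-37213797), ETV5 (34:18729556-18788969) and DUSP6 (15:30322404-30326508) were also on the minus strand. An unannotated locus on the opposite strand (25:16659580-16677390) overlapped the FGF9 span by 6247 bp. The library kit does not keep strand, so reads of FGF9 and of that locus cannot be told apart where they overlap.

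The markers of ovary and testis followed the sex labels. SOX9, which drives Sertoli cell fate, averaged between 58 and 79.7 FPKM in the XY groups and between 2.9 and 4.47 FPKM in the XX groups, pools aside. FOXL2, a granulosa cell gene, averaged between 17.6 and 48.5 FPKM in XX groups and between 0.163 and 0.74 FPKM in XY groups. One XX DSD library of d35, embryo C3575, stood apart, with a FOXL2 level of 2.87 FPKM against 10.7 to 33.4 FPKM in the other 8, and the d35 comparisons that include it are given with and without it. Other ovary (pre-granulosa) markers did not all follow FOXL2. WNT4 was also below the other 8 (10.6 against 14.9 to 27.6 FPKM). IRX3 (1.17 against 0.373 to 0.854 FPKM) and IRX5 (2.78 against 0.361 to 1.96 FPKM) were above them, and RSPO1, FST and NR0B1 lay inside the range. SOX9 in C3575 was below the other 8 as well (0.853 against 1.85 to 5.25 FPKM). The tables hold no read totals. Relative depth, taken as the commonest ratio between libraries of low values (at most 0.15 FPKM) of the same gene, differed by 6.48-fold between the deepest and the shallowest library. It lay between 0.24 and 0.299 of the deepest library in XX DSD d41-44 gonads and between 0.616 and 0.859 in XX d44 controls. In bulk gonad RNA, fewer cells of a type and less RNA per cell cannot be told apart.

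All 10 genes were detected in every library, and their levels covered a wide range. The values are FPKM, fragments scaled to transcript length and to library size, and so can be set side by side between genes only roughly. They depend on the transcripts taken for a locus. FGF9 in XX controls of d37-39 averaged 5.53 FPKM here and 7.33 FPKM in the table of annotated genes. Over the 53 single-embryo libraries, FGFR1 was the most abundant receptor (lowest 36, median 57.9, highest 90.6 FPKM). FGFR3 (median 7 FPKM) and FGFR2 (median 6.01 FPKM) were lower, and FGFR4 was lowest (median 1.66 FPKM). The ligand FGF9 had a median of 5.68 FPKM. Among the response genes, DUSP6 (median 40.3 FPKM) was above SPRY1 (21.7 FPKM), SPRY2 (21.4 FPKM), SPRY4 (3.67 FPKM) and ETV5 (3.36 FPKM). FGFR4 and FGFR3 varied most between libraries, by 7.87-fold and 7.4-fold from the lowest to the highest, and FGFR1 varied least, by 2.52-fold.

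**Figure D1:**
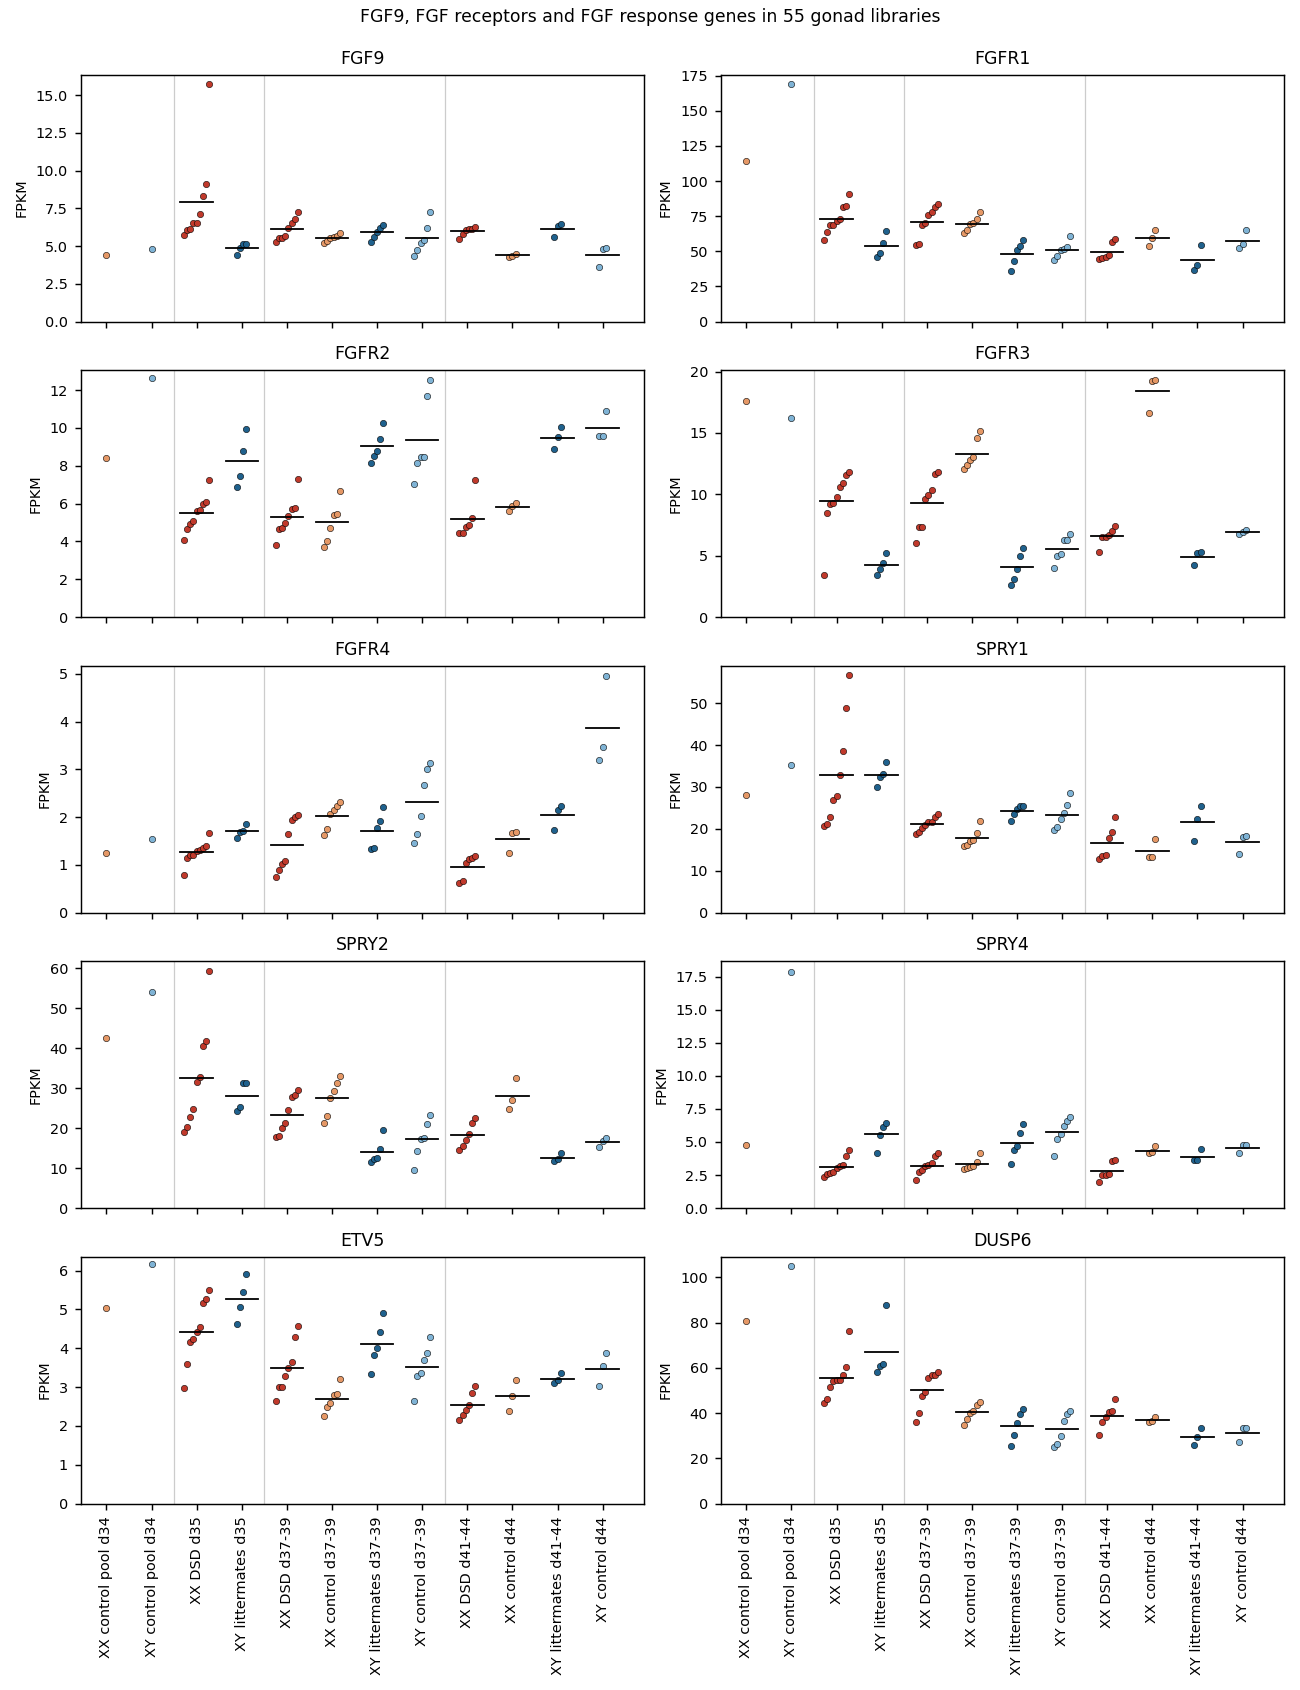
FPKM of each gene (y axis, linear from 0) in each of the 55 libraries, with 1 point per library, groups along the x axis in order of age and a line at each group mean. FGFR3 lies between 16.6 and 19.3 FPKM in the 3 XX controls of d44 and between 5.31 and 7.41 FPKM in the 6 XX DSD gonads of d41-44.

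Differences were tested with limma on log2(FPKM + 1), on which scale changes of low genes are understated, and a gene was called when its p, adjusted over all loci tested, was under 0.05. Embryos of a group share litters, so the p-values measure the spread between embryos and not between litters. Shares given for annotated loci come from separate fits adjusted over those loci alone. Their threshold therefore differs from that of the gene counts set beside them.

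The first question was whether XX DSD gonads differed from control ovaries, which were of d37-39 and of d44. At d37-39, 0 of 10 genes were higher and 1 was lower, where 5.65% of 25231 loci were higher and 8.11% were lower. At d41-44, 1 was higher and 3 were lower, where 19.3% of 19420 loci were higher and 29.2% were lower. The share of these genes called was therefore near the background at both ages. In a separate fit of annotated loci alone, a set taken after the data were seen, 67.6% were called at d41-44. FGFR1 (adjusted p = 0.0481) and FGFR4 (adjusted p = 0.0351) were also called in that fit. The median difference of the 10 genes was 0.04 at d37-39, against 0.09 over all loci tested, and -0.21 at d41-44, against -0.09. FGFR4 averaged 0.965 FPKM in XX DSD gonads of d41-44 and passed the filter of 1 FPKM only through the other group, in this comparison and in that with XY littermates. XY littermates against XY controls gave 0 of 10 at d37-39 (background 1.29%) and 0 of 10 at d41-44 (background 11.2%). At an unadjusted p under 0.05 these 2 counts were 0 and 4.

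**Figure D2:**
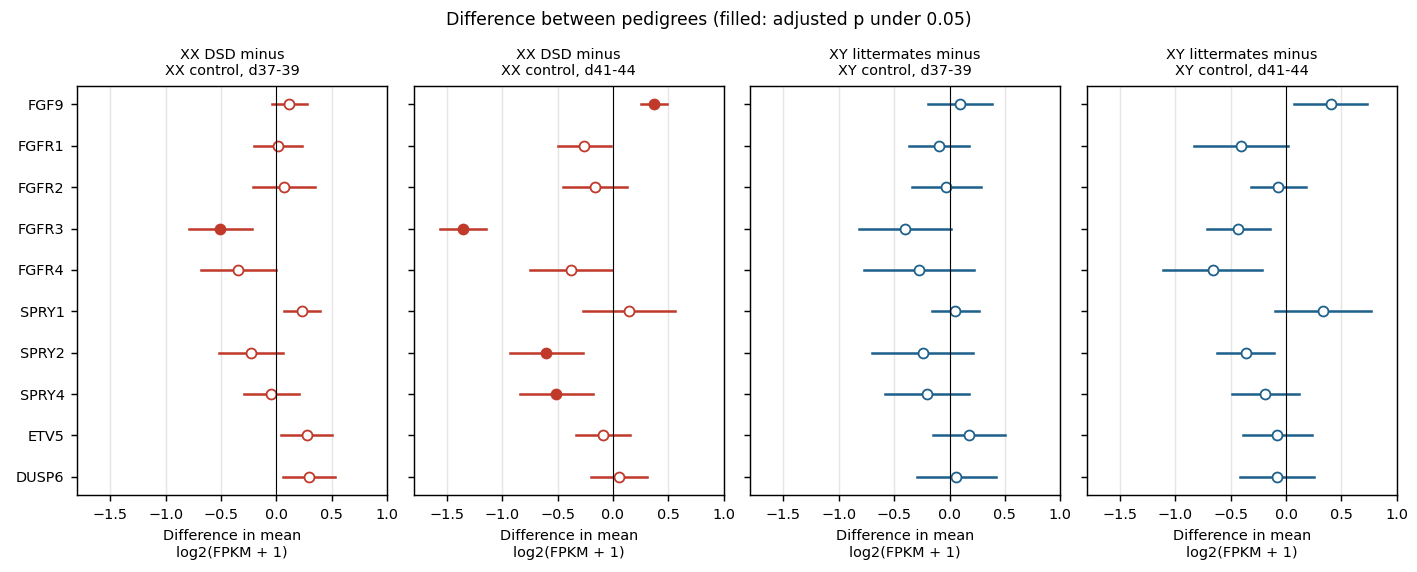
Difference in mean log2(FPKM + 1), DSD pedigree minus control, for each gene in XX gonads (red) and XY gonads (blue) at both ages, with 95% intervals and filled points where the adjusted p was under 0.05. FGFR3 at d41-44 stands farthest from 0, at -1.36 in XX gonads, against -0.43 in XY gonads.

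The second question was how XX and XY gonads differed within each pedigree. In controls of d37-39, XX gonads were higher in 3 of the 10 and lower in another 3 (12.7% and 13.8% of 21171 loci), and at d44 there were 2 higher and 2 lower (12.8% and 12% of 19081 loci). In the fits of annotated loci alone, 41.3% and 38.4% were called at these ages, and ETV5 was called too at d37-39 (adjusted p = 0.0329). XX DSD gonads against XY littermates gave 4 of 10 at d35 (background 21.4%), 5 of 10 at d37-39 (7.49%) and 4 of 10 at d41-44 (28.3%). The 4 at d41-44 include FGFR4, which passed the filter there only through the XY group, where it was high. Among annotated loci alone the shares called were 27.8%, 30.5% and 42.4%. Those fits also called SPRY4 at d37-39 (adjusted p = 0.0244) and DUSP6 at d41-44 (adjusted p = 0.0349). With 10 genes, the counts were not tested against that background. At d37-39, 37554 loci passed the filter, of which 11949 were annotated. With 1 mean per litter, FGFR3 alone stayed called in controls of d37-39. The median over the 10 genes lay between -0.15 and -0.03 in all 5 comparisons of XX with XY gonads, against -0.28 to 0.04 over all loci tested, and calls ran in both directions.

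**Figure D3:**
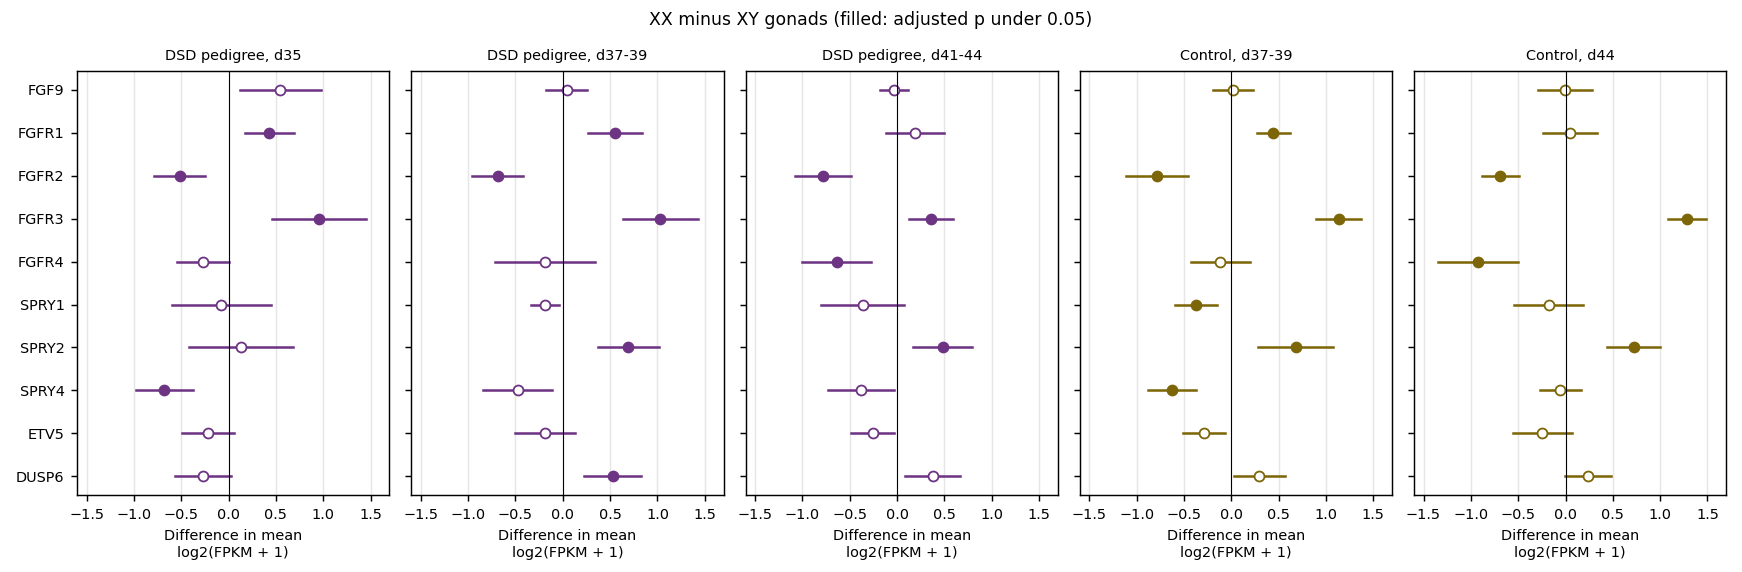
Difference in mean log2(FPKM + 1), XX minus XY, for each gene in the DSD pedigree (purple, 3 ages) and in controls (olive, 2 ages), with 95% intervals and filled points where the adjusted p was under 0.05. FGFR2 is below 0 and FGFR3 above 0 in all 5 panels, with filled points throughout.

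FGF9, the ligand, did not differ between control ovaries and testes. Its level in XX controls at d37-39 was 5.2, 5.57 and 5.85 FPKM (lowest, median, highest of 6), and in XY controls 4.36, 5.3 and 7.24 FPKM. The XX values fell inside the XY range, and the difference was 0.02 (95% interval -0.19 to 0.23, adjusted p = 0.925). At d44 the XX controls had 4.3, 4.35 and 4.5 FPKM and the XY controls 3.62, 4.77 and 4.9 FPKM, again overlapping, with an interval from -0.29 to 0.28 (adjusted p = 0.981).

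FGF9 was higher in XX DSD gonads of d41-44 than in control ovaries of d44. The 6 XX DSD libraries had 5.48, 6.09 and 6.24 FPKM (lowest, median, highest), against 4.3, 4.35 and 4.5 FPKM in the 3 XX controls, and the groups did not overlap. The means were 5.97 ± 0.285 and 4.38 ± 0.109 FPKM (SD, n = 6 and 3), 1.36-fold, with a difference of 0.37 (adjusted p = 0.000335). XY littermates stood above XY controls by a similar amount, with 5.63, 6.36 and 6.44 FPKM against 3.62, 4.77 and 4.9 FPKM. These groups did not overlap either, and the difference of 0.40 (95% interval 0.07 to 0.73) missed the threshold (adjusted p = 0.0978) but passed it with litter as a random block (adjusted p = 0.0259) and missed it again with 1 mean per litter (0.37, adjusted p = 0.337). The difference in XX gonads missed it with 1 mean per litter (adjusted p = 0.0518). The pedigree difference of FGF9 did not differ detectably between XX and XY gonads (interaction -0.03, 95% interval -0.29 to 0.23, adjusted p = 0.913). At d37-39 XX DSD gonads (5.29, 5.95 and 7.23 FPKM; lowest, median, highest) overlapped XX controls (5.2, 5.57 and 5.85 FPKM), with a difference of 0.12 (adjusted p = 0.381). The XX DSD gonads of d41-44 also overlapped these d37-39 controls, and only 1 of the 6 was of d44. The part of age in their difference from d44 controls was not tested.

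Within the DSD pedigree, the FGF9 difference between the sexes was widest at d35. XX DSD gonads had 5.71, 6.56 and 15.8 FPKM (lowest, median, highest of 9) and XY littermates 4.38, 4.85, 5.11 and 5.11 FPKM, so every XX DSD library was above every XY library. The difference was 0.55 with an adjusted p of 0.0673. It was called with median-of-ratios or upper-quartile scaling (adjusted p = 0.0213 and 0.0319) and in the table of annotated genes (0.63, adjusted p = 0.0336), but not with litter as a fixed factor (0.58, adjusted p = 0.202) or with 1 mean per litter (0.45, adjusted p = 0.228). Without C3575, which held the 15.8 FPKM, XX DSD gonads averaged 6.94 ± 1.2 FPKM (n = 8) against 4.86 ± 0.343 FPKM in XY littermates (n = 4), and the difference was 0.43 with an adjusted p of 0.0119. The opposite-strand locus was also highest in C3575, at 7.53 FPKM, and reached 0.748 FPKM in the lowest XX DSD library of d35. Its part in the FGF9 values was not tested. At d37-39 (0.04, adjusted p = 0.774) and d41-44 (-0.04, adjusted p = 0.691) the 2 sexes overlapped.

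FGFR3 was the receptor with the largest differences between groups. In order of the group mean, XX controls of d44 (18.4 FPKM) were followed by XX controls of d37-39 (13.3), XX DSD gonads of d35 (9.45) and d37-39 (9.25), XY controls of d44 (6.93), XX DSD gonads of d41-44 (6.58), XY controls of d37-39 (5.57), and XY littermates of d41-44 (4.91), d35 (4.23) and d37-39 (4.04). The libraries of both control ovary groups lay above 12 FPKM and above all other single-embryo libraries. From XX DSD gonads of d35 downward, the range of each group overlapped that of the next, so that no pair of neighbors in this order was apart beyond its spread. Between XX DSD gonads of d37-39 and XY controls of d44 the overlap came from 1 library of 6.03 FPKM.

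Control ovaries had more FGFR3 than control testes. At d37-39 the XX controls had 12.1, 12.9 and 15.1 FPKM (lowest, median, highest) and the XY controls 3.97, 5.7 and 6.78 FPKM, with no overlap and a difference of 1.14 (95% interval 0.90 to 1.37, adjusted p = 5.78e-06). At d44 they had 16.6, 19.2 and 19.3 FPKM against 6.76, 6.95 and 7.1 FPKM, a difference of 1.29 (adjusted p = 0.000231). Both calls were kept in every alternative run.

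XX DSD gonads had less FGFR3 than ovaries at both ages. At d37-39 their 8 libraries had 6.03, 9.77 and 11.8 FPKM (lowest, median, highest), and the 6 XX controls 12.1, 12.9 and 15.1 FPKM. The groups were next to each other without overlap, and the difference was -0.51 (95% interval -0.79 to -0.23, adjusted p = 0.0194). Embryos of d37, C3512 and C3515, were lowest (6.03 and 7.34 FPKM). They also had the lowest relative depth of the group (0.247 and 0.273). Their median correlation with the rest of the group was 0.908 and 0.918, against 0.956 to 0.963 for the d39 embryos. Among d39 embryos alone the difference was -0.29 (adjusted p = 0.221). It missed the threshold as well with litter as a random block (adjusted p = 0.0605) and with 1 mean per litter (adjusted p = 0.464).

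At d41-44 the 6 XX DSD libraries had 5.31, 6.62 and 7.41 FPKM (lowest, median, highest), and the 3 XX controls 16.6, 19.2 and 19.3 FPKM. The means were 6.58 ± 0.706 and 18.4 ± 1.52 FPKM (SD), 2.79-fold lower in XX DSD gonads, and the highest XX DSD library was below the lowest control. The difference was -1.36 (95% interval -1.56 to -1.15, adjusted p = 7.66e-06), and it stayed called in each of the 23 alternatives run, with adjusted p between 3e-06 and 0.00519 (unadjusted exact permutation p = 0.0119). XY littermates had 4.2, 5.21 and 5.33 FPKM against 6.76, 6.95 and 7.1 FPKM in XY controls, which did not overlap, with a difference of -0.43 (adjusted p = 0.0611). That difference was called with litter as a random block (adjusted p = 0.0191) and not with 1 mean per litter (adjusted p = 0.356).

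The FGFR3 difference between pedigrees was larger in XX than in XY gonads at d41-44. The interaction was -0.93 (95% interval -1.23 to -0.62, adjusted p = 0.0228), and FGFR3 was the 1 gene of 10 called, where 0.115% of 22686 loci and 0.481% of annotated loci were called. Leaving out each library in turn kept the call, with adjusted p between 0.00593 and 0.0454, and a fit of all 10 groups together did not (adjusted p = 0.522). At d37-39 no gene of the 10 was called in the interaction (background 0.00514%), and none had an unadjusted p under 0.05.

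Other measures moved with FGFR3 in XX DSD gonads of d41-44. Of the 7 pre-granulosa markers, 5 were lower than in XX controls and 0 higher, and their summed level was 88.8 to 122 FPKM, against 216 to 226 FPKM. FOXL2 averaged 24.7 FPKM against 48.5 FPKM, and RSPO1, a WNT signaling activator of the ovary pathway, 37.1 FPKM against 98.6 FPKM, and none of the 7 markers was at 0. Of 5 Sertoli markers tested, 3 were lower (510 to 805 FPKM summed, against 942 to 1000 FPKM). Such a sum can rest largely on PTGDS in XX gonads. In 8 XX DSD gonads of d35, medians were 516 FPKM for PTGDS, 47.6 FPKM for GATA4 and 3.91 FPKM for SOX9. Of 5 immediate early genes tested, 3 were lower, and the summed level of the list was 43.2 to 63.8 FPKM, against 73.4 to 87 FPKM. Of 4 macrophage markers tested 2 were lower (9.7 to 23 FPKM summed, against 12.8 to 17.5 FPKM), and of 3 proliferation markers 1 was higher and 1 lower (272 to 355 against 274 to 291 FPKM). Of 5 endothelial markers, 3 were lower (134 to 147 FPKM summed, against 148 to 179 FPKM), and 0 of 4 Leydig markers tested were called. Interstitial markers summed to 140 to 157 against 168 to 202 FPKM. Mesonephros (79.6 to 94 against 84 to 91 FPKM), germ cell (0.343 to 7 against 2.74 to 4.68 FPKM) and erythroid sums (8.78 to 13.5 against 8.13 to 10.2 FPKM) overlapped. The mesonephros sum can rest largely on EMX2. In the 8 XX DSD gonads of d35 other than C3575, medians were 68.4 FPKM for EMX2, 3.05 FPKM for PAX8 and 1 FPKM for CDH16. As background for the counts above, 19.3% of all loci were higher and 29.2% lower, and 67.6% of annotated loci were called in either direction. The part of these markers, and of the lower relative depth given above, in the FGFR3 difference and in those of FGF9, SPRY2 and SPRY4 at this age was not tested.

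FGFR3 was higher in XX DSD gonads than in XY littermates at all 3 ages. At d35 XX DSD gonads had 3.45, 9.79 and 11.8 FPKM (lowest, median, highest) and XY littermates 3.42, 3.9, 4.37 and 5.22 FPKM (0.96, adjusted p = 0.00911). The 3.45 FPKM was C3575, the only XX library inside the XY range, and without it the difference was 1.10 (adjusted p = 1.57e-05). With litter as a fixed factor the d35 call was lost (0.79, adjusted p = 0.164). At d37-39 XX DSD gonads had 6.03, 9.77 and 11.8 FPKM against 2.61, 3.11, 3.88, 4.98 and 5.65 FPKM (1.03, adjusted p = 0.00234). At d41-44 they had 5.31, 6.62 and 7.41 FPKM against 4.2, 5.21 and 5.33 FPKM (0.36, adjusted p = 0.0288), and that call was lost without any 1 of 6 of the 9 embryos (C3696, C3517, C3684, C3688, C3659 and C3691), at adjusted p between 0.0512 and 0.11. In FPKM the ratio of means was 1.34-fold at d41-44 in the DSD pedigree and 2.65-fold at d44 in controls.

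FGFR2, the receptor through which FGF9 acts in the mouse testis, ran the other way. XX controls of d37-39 had 3.73, 5.06 and 6.65 FPKM (lowest, median, highest) and XY controls 7.04, 8.44 and 12.5 FPKM, without overlap, and the difference was -0.78 (95% interval -1.11 to -0.46, adjusted p = 0.00157). At d44 the XX controls had 5.59, 5.89 and 6.01 FPKM and the XY controls 9.57, 9.6 and 10.9 FPKM (-0.69, adjusted p = 0.00202). XX gonads were thus lower at both control ages.

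The same direction held in the DSD pedigree. At d35 XX DSD gonads had 4.09, 5.61 and 7.24 FPKM (lowest, median, highest) and XY littermates 6.89, 7.45, 8.76 and 9.95 FPKM (-0.52, adjusted p = 0.00945; without C3575 -0.51, adjusted p = 0.0104). At d37-39 they had 3.8, 5.14 and 7.29 FPKM against 8.13, 8.51, 8.77, 9.41 and 10.3 FPKM (-0.69, adjusted p = 0.00265), and at d41-44 4.44, 4.79 and 7.25 FPKM against 8.89, 9.51 and 10.1 FPKM (-0.78, adjusted p = 0.00204). Only the d35 groups overlapped. With upper-quartile scaling the d37-39 difference was -0.14 (adjusted p = 0.656), and with 1 mean per litter the d35 call was lost (adjusted p = 0.144). FGFR2 did not differ detectably between pedigrees in XX gonads (0.07, 95% interval -0.21 to 0.34, at d37-39 and -0.16, 95% interval -0.45 to 0.13, at d41-44). The second value turned into a called difference of -0.25 (adjusted p = 0.0131) without embryo C3688, whose FGFR2 level of 7.25 FPKM was above the 4.44 to 5.26 FPKM of the other 5.

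The balance of FGFR2 and FGFR3 within a library, which was looked at after the single genes had been seen, is given as a description. Where equal levels lie depends on the transcripts assembled for each gene. FGFR3 exceeded FGFR2 in all XX single-embryo libraries but 1, and FGFR2 exceeded FGFR3 in all XY single-embryo libraries. The exception was C3575 (log2 ratio of FGFR2 to FGFR3 of 0.56). At d41-44 the log2 ratio had a median of -0.38 in XX DSD gonads (-0.58 to -0.03), against -1.71 in XX controls of d44 (-1.78 to -1.47). At d37-39 the medians were -0.77 and -1.40. In XY littermates it lay between 0.53 and 1.75 at d37-39 and between 0.87 and 1.08 at d41-44, against 0.16 to 1.56 and 0.44 to 0.65 in XY controls.

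**Figure D4:**
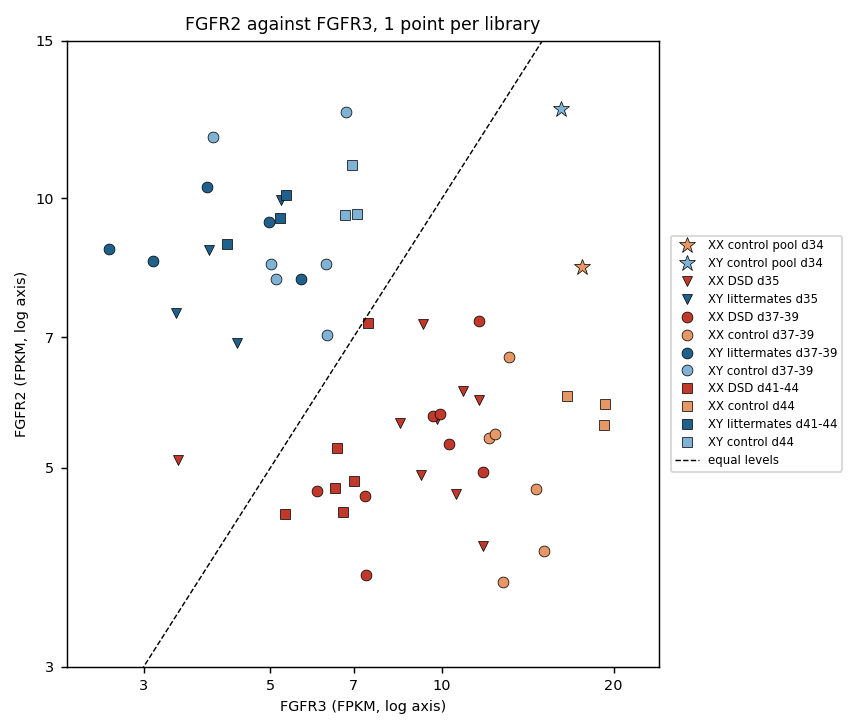
FGFR2 level (y axis, FPKM, log scale) against FGFR3 level (x axis, FPKM, log scale), with 1 point per library and a dashed line where both are equal. XX libraries lie right of the line apart from C3575 (XX DSD, d35, FGFR3 of 3.45 FPKM), the single-embryo XY libraries lie left of it, and XX DSD gonads of d41-44 (FGFR3 of 5.31 to 7.41 FPKM) lie nearest to it.

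FGFR1, the most abundant receptor, was higher in XX than in XY gonads before d41. At d37-39 XX controls had 62.7, 69.8 and 78 FPKM (lowest, median, highest) and XY controls 43.8, 51.2 and 60.6 FPKM, without overlap (0.45, adjusted p = 0.00115). XX DSD gonads had 54.7, 72.9 and 83.8 FPKM against 36, 43.1, 50.6, 53.5 and 57.7 FPKM in XY littermates at d37-39 (0.55, adjusted p = 0.017), where 2 d37 XX DSD libraries fell inside the XY range. The call was lost without XY littermates C3516 or C3637 (adjusted p = 0.0502 and 0.05). At d35 the values were 57.9, 71.3 and 90.6 FPKM in XX DSD gonads and 46, 48.9, 55.9 and 64.6 FPKM in XY littermates (0.43, adjusted p = 0.0218; without C3575 0.47, adjusted p = 0.00696), and leaving out C3618 or C3617 gave adjusted p of 0.0813 and 0.0945, and litter as a fixed factor 0.336. At d44 the sexes did not differ detectably in controls (0.05, 95% interval -0.24 to 0.33, adjusted p = 0.793), nor at d41-44 in the DSD pedigree (0.19, adjusted p = 0.344).

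Between pedigrees, FGFR1 was 44.4, 46.6 and 58.8 FPKM (lowest, median, highest) in XX DSD gonads of d41-44 and 53.9, 59.1 and 65.1 FPKM in XX controls, which overlapped (-0.26, adjusted p = 0.0718). Without either of the d41 embryos C3694 and C3696 the difference was called (adjusted p = 0.0228 and 0.0442). Without both it was -0.37 (adjusted p = 0.00302).

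FGFR4, the least abundant receptor, was lower in XX than in XY controls at d44. XX controls of d44 had 1.26, 1.67 and 1.7 FPKM and XY controls 3.2, 3.46 and 4.96 FPKM (-0.93, adjusted p = 0.0119). XX DSD gonads had 0.63, 1.08 and 1.19 FPKM (lowest, median, highest) and XY littermates 1.74, 2.16 and 2.24 FPKM (-0.64, adjusted p = 0.0169), a call lost without XY littermates C3518 or C3522 (adjusted p = 0.0593 and 0.0544) and with litter as a fixed factor (-0.56, adjusted p = 0.0799). In that comparison FGFR4 was tested only through the XY group, where it was high, so the values are a description. Neither pair of groups overlapped. At d37-39 the sexes did not differ detectably in either pedigree (-0.11, adjusted p = 0.582 in controls and -0.18, adjusted p = 0.566 in the DSD pedigree). The XX DSD gonads of d41-44 also lay below their XX controls without overlap (-0.38, 95% interval -0.75 to -0.01, adjusted p = 0.0892).

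SPRY1, SPRY2 and SPRY4 encode Sprouty proteins, which damp receptor tyrosine kinase signaling, and they did not move as a group. SPRY2 was higher in XX gonads from d37 on, whereas SPRY1 and SPRY4 were lower in XX gonads wherever they were called. For SPRY2, XX controls of d37-39 had 21.4, 28.4 and 33 FPKM (lowest, median, highest) and XY controls 9.63, 17.4 and 23.3 FPKM, with overlap (0.68, adjusted p = 0.0139). At d44 the XX controls had 24.9, 27 and 32.5 FPKM and the XY controls 15.4, 16.9 and 17.4 FPKM (0.72, adjusted p = 0.00694). These did not overlap.

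In the DSD pedigree SPRY2 was also higher in XX gonads, at 17.8, 23 and 29.5 FPKM (lowest, median, highest) against 11.5, 12.3, 12.6, 14.7 and 19.5 FPKM in XY littermates at d37-39 (0.69, adjusted p = 0.00917). At d41-44 XX DSD gonads had 14.4, 17.8 and 22.6 FPKM against 11.9, 12.2 and 13.8 FPKM (0.48, adjusted p = 0.0286). That later call was lost without C3696, C3691 or C3518 (adjusted p = 0.0545, 0.0958 and 0.0869), and without all 3 d41 embryos the difference was 0.38 (adjusted p = 0.221). With litter as a fixed factor it was 0.42 (adjusted p = 0.136). At d35 SPRY2 overlapped (0.13, adjusted p = 0.737; without C3575 0.01, adjusted p = 0.969).

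Against XX controls, SPRY2 was lower in XX DSD gonads of d41-44. The values were 14.4, 17.8 and 22.6 FPKM (lowest, median, highest) against 24.9, 27 and 32.5 FPKM, without overlap, and the means were 18.3 ± 3.23 and 28.1 ± 3.93 FPKM (-0.60, 95% interval -0.93 to -0.27, adjusted p = 0.00724). XY littermates were lower than XY controls by 1.31-fold (11.9, 12.2 and 13.8 FPKM against 15.4, 16.9 and 17.4 FPKM) with an adjusted p of 0.0691. That difference was called with litter as a random block (adjusted p = 0.0186) and not with 1 mean per litter (adjusted p = 0.238). With 1 mean per litter the SPRY2 call in XX gonads was lost (adjusted p = 0.191).

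SPRY4 was lower in XX DSD gonads than in XX controls at d41-44. The XX DSD libraries had 1.97, 2.55 and 3.67 FPKM (lowest, median, highest) and the XX controls 4.16, 4.2 and 4.68 FPKM, without overlap (-0.51, adjusted p = 0.0159). The call was lost without control A1107 (-0.47, adjusted p = 0.0664) and with 1 mean per litter (adjusted p = 0.234). Between the sexes, SPRY4 was lower in XX controls than in XY controls at d37-39 (2.96, 3.15 and 4.2 FPKM against 3.93, 5.92 and 6.89 FPKM; -0.63, adjusted p = 0.00131). The difference at d44 was -0.06 (adjusted p = 0.647). At d35 XX DSD gonads had 2.32, 3.02 and 4.37 FPKM and XY littermates 4.2, 5.51, 6.16 and 6.46 FPKM (-0.68, adjusted p = 0.00338; without C3575 -0.66, adjusted p = 0.00386), a call lost with 1 mean per litter (adjusted p = 0.213). At d37-39 they had 2.12, 3.23 and 4.17 FPKM against 3.32, 4.39, 4.7, 5.7 and 6.36 FPKM, with overlap (-0.48, adjusted p = 0.137).

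SPRY1 was called between the sexes in controls of d37-39 only, at 16, 17.2 and 21.9 FPKM in XX and 19.8, 23 and 28.6 FPKM in XY gonads (lowest, median, highest; -0.37, adjusted p = 0.0162). In XX DSD gonads of d37-39 it was 18.9, 21.3 and 23.5 FPKM, above most XX controls but overlapping them (0.23, 95% interval 0.07 to 0.39, adjusted p = 0.0572). Leaving out C3512, C3515 or control A1098 brought that adjusted p to 0.0418, 0.0499 and 0.015. The difference at d41-44 was 0.15 (adjusted p = 0.561).

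ETV5 was called in none of the comparisons. In controls of d37-39 it was 2.26, 2.69 and 3.2 FPKM in XX and 2.65, 3.52 and 4.3 FPKM in XY gonads (lowest, median, highest), an overlapping difference of -0.29 with an adjusted p of 0.0537. Leaving out XX control A1098 or XY controls A1099 or A1095 gave adjusted p of 0.0427, 0.0118 and 0.0495. XX DSD gonads of d37-39 had 2.64, 3.38 and 4.57 FPKM, against 2.26, 2.69 and 3.2 FPKM in XX controls (0.27, adjusted p = 0.116).

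DUSP6 was higher in XX DSD gonads than in XY littermates at d37-39. The XX DSD libraries had 36.1, 52.4 and 58.4 FPKM (lowest, median, highest) and the XY littermates 25.5, 30.2, 35.5, 39.6 and 41.6 FPKM, with overlap (0.53, 95% interval 0.23 to 0.83, adjusted p = 0.0328). The call was fragile. It was lost without any 1 of 9 of the 13 embryos (C3512, C3515, C3624, C3630, C3632, C3633, C3627, C3637 and C3638), at adjusted p between 0.0526 and 0.093. The same call was kept with litter as a fixed factor (0.47, adjusted p = 0.000461) and lost with 1 mean per litter (0.47, adjusted p = 0.241). At d41-44 the values were 30.2, 39.4 and 46.3 FPKM against 26.1, 29.3 and 33.3 FPKM (0.38, adjusted p = 0.0556), and called without C3684 (adjusted p = 0.0158). In controls XX gonads were above XY gonads by 0.30 at d37-39 (adjusted p = 0.106; 0.0478 without XY control A1100 and 0.0138 with litter as a fixed factor) and by 0.24 at d44 (adjusted p = 0.139). Against XX controls, XX DSD gonads of d37-39 had a difference of 0.29 (adjusted p = 0.0951; 0.0213 without C3636).

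In XY littermates, 3 of the 5 response genes were lower at d37-39 than at d35. These were the only calls among the 10 genes, where 11.5% of all loci and 39.4% of annotated loci were called. The median of the 10 was -0.17, against 0.63 over all loci tested and -0.10 over annotated loci. DUSP6 had 25.5, 30.2, 35.5, 39.6 and 41.6 FPKM at d37-39 against 58.2, 60.9, 61.7 and 87.9 FPKM at d35 (-0.94, adjusted p = 0.00763). SPRY2 had means of 14.1 ± 3.2 and 28 ± 3.77 FPKM (SD, n = 5 and 4), a difference of -0.95 (adjusted p = 0.00494), and SPRY1 of 24.2 ± 1.57 and 32.9 ± 2.52 FPKM (-0.43, adjusted p = 0.00614). None of these 3 overlapped between the ages. With 1 mean per litter all 3 missed the threshold (adjusted p between 0.0573 and 0.127). Proliferation markers moved with them, at 177 to 201 FPKM summed at d37-39 against 292 to 529 FPKM at d35 (2 of 3 lower, 1 higher), and their part was not tested. At d35 embryo C3574, which had the 87.9 FPKM of DUSP6, had a Leydig marker sum of 1260 FPKM, against 4760 to 6930 FPKM in the other 3. Without it DUSP6 (-0.81, adjusted p = 0.0181), SPRY2 (-1.02, adjusted p = 0.0112) and SPRY1 (-0.43, adjusted p = 0.0173) were still called.

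XX DSD gonads showed no call from d35 to d37-39 (0 of 10, background 4.87%), and 2 of the 10 had an unadjusted p under 0.05. SPRY1 came closest, at 18.9, 21.3 and 23.5 FPKM at d37-39 and 20.7, 27.8 and 56.8 FPKM at d35 (lowest, median, highest; -0.54, adjusted p = 0.0821). Without C3575 it was -0.43 (adjusted p = 0.108), and without C3511 it was called (adjusted p = 0.0422). From d37-39 to d41-44, FGFR1 alone was called in XX DSD gonads (1 of 10, against 2.73% of all loci and 17.3% of annotated loci), at 44.4, 46.6 and 58.8 FPKM against 54.7, 72.9 and 83.8 FPKM (-0.50, adjusted p = 0.0391). The groups overlapped, and the call was lost without any 1 of 11 of the 14 embryos (all but C3694, C3512 and C3515), at adjusted p between 0.0547 and 0.0976. FGFR3 was called when C3512 or C3515 was left out (adjusted p = 0.0151 and 0.0465), ETV5 without C3515 (0.0382) and SPRY1 without C3694 (0.0464). In the fit of annotated loci alone, FGFR3 (adjusted p = 0.0438), ETV5 (0.0443) and SPRY1 (0.0491) were called as well. The median over the 10 genes was -0.33, against -0.15 over all loci tested. XY littermates gave 0 of 10 over the same step (background 0.0348%), and none had an unadjusted p under 0.05.

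In control ovaries FGF9 and FGFR3 moved apart with age. Of the 10 genes, 2 were called between d37-39 and d44 (2.61% of all loci and 6.39% of annotated loci). FGF9 had 4.3, 4.35 and 4.5 FPKM at d44 against 5.2, 5.57 and 5.85 FPKM (lowest, median, highest) at d37-39 (-0.28, adjusted p = 0.0312), and FGFR3 had 16.6, 19.2 and 19.3 FPKM against 12.1, 12.9 and 15.1 FPKM (0.44, adjusted p = 0.0332). Neither overlapped. The d44 controls were 1 litter, and the FGF9 call was lost without any 1 of A1104, A1107, A1110, A1097, A1098, A1086 and A1088 (adjusted p between 0.0527 and 0.124). The FGFR3 call was lost without any 1 of these except A1098 (0.053 to 0.15), and SPRY4 was called without A1101 (0.0471). Control testes gave 0 of 10 (background 0.138%) and 2 with an unadjusted p under 0.05.

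**Figure D5:**
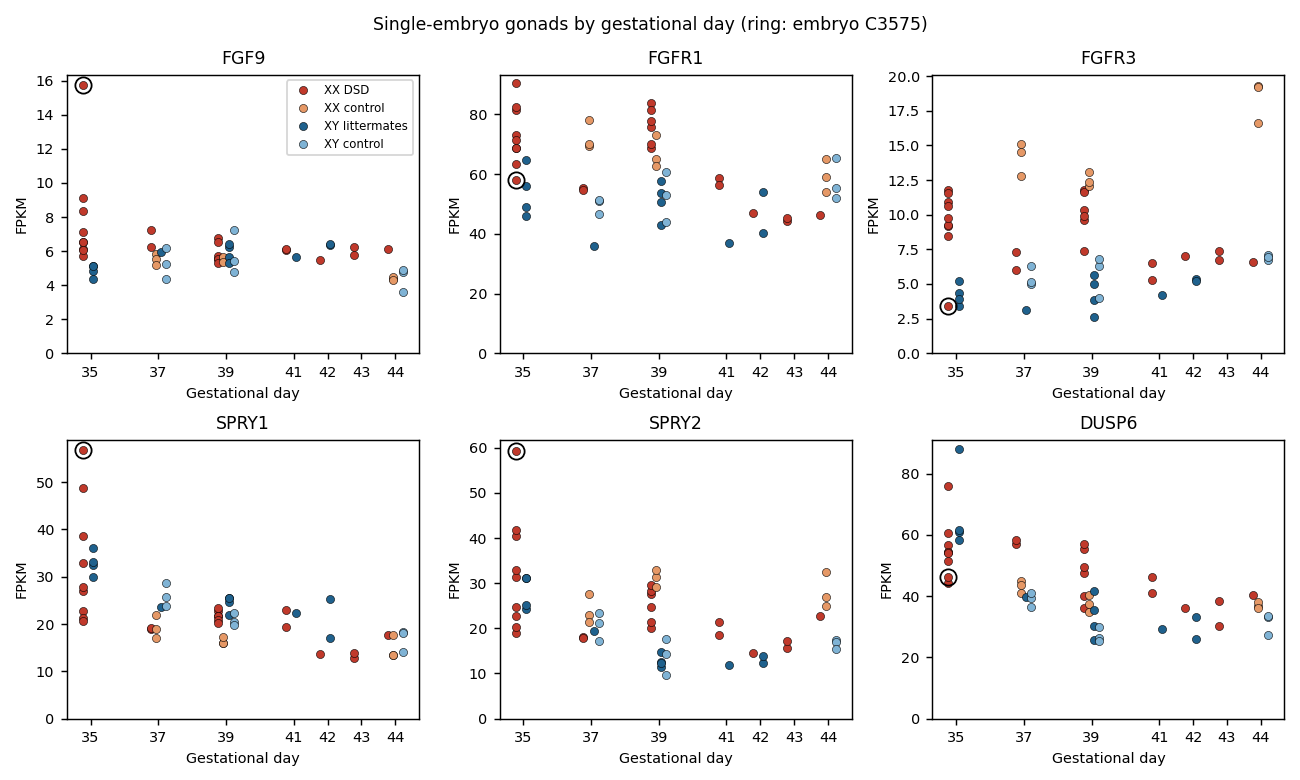
FPKM (y axis, linear from 0) of 6 genes by gestational day (x axis) in the 53 single-embryo gonads, colored by pedigree and sex, with a ring around embryo C3575. DUSP6 and SPRY1 are highest at d35, and FGFR3 of the XX controls at d44 (16.6 to 19.3 FPKM) lies above every other point.

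Insertion genotype was compared within the XX DSD gonads of d35, where 4 homozygous and 5 heterozygous embryos were available. None of the 10 genes was called (background 0.0172%), and 2 had an unadjusted p under 0.05. SPRY1 averaged 24.6 ± 3.19 FPKM in homozygous and 39.6 ± 14 FPKM in heterozygous gonads (SD, n = 4 and 5; -0.59, adjusted p = 0.254), and ETV5 3.81 ± 0.65 and 4.93 ± 0.551 FPKM (-0.31, adjusted p = 0.246). C3575 was among the heterozygous embryos. Without it the SPRY1 difference was -0.45 (adjusted p = 0.368) and that of ETV5 -0.33 (adjusted p = 0.287).

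Other FGF pathway genes gave the setting of these 10. Of 83 listed ligands, binding proteins, signaling intermediates and response genes, 48 passed the filter at d41-44 in XX gonads, and against XX controls XX DSD gonads had 13 higher and 22 lower (median -0.19, against -0.09 over all loci). Called were 19.3% higher and 29.2% lower of all loci, and 67.6% of annotated loci. At d37-39, 11 of 50 were higher and 9 lower (median 0.05), where 5.65% and 8.11% of all loci and, in both directions together, 29.2% of annotated loci were called. FGFRL1, a receptor-like protein without the kinase, was lower in the DSD pedigree in both sexes and at both ages: 1.87 ± 0.688 against 6.21 ± 0.792 FPKM in XX and 1.89 ± 0.776 against 6.36 ± 1.94 FPKM in XY gonads at d37-39 (adjusted p = 0.000119 and 0.0377). At d41-44 it averaged 2.14 against 5.93 FPKM in XX and 3.1 against 7.33 FPKM in XY gonads (adjusted p = 8.43e-05 and 0.0285).

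HS6ST1, which sulfates the heparan sulfate chains that bind FGFs, was lower at d37-39 in XX DSD gonads (68.5 against 108 FPKM in XX controls, adjusted p = 0.0029) and in XY littermates (18.2 against 30.3 FPKM in XY controls, adjusted p = 0.0413). At d41-44, XX DSD gonads were lower than XX controls in FLRT1, an FGF receptor binding membrane protein (3.94 against 12.1 FPKM, adjusted p = 2.55e-05), in DUSP9, a MAP kinase phosphatase (2.35 against 6.41 FPKM, adjusted p = 1.44e-05), and in PHLDA1 (5.5 against 13.5 FPKM, adjusted p = 4.15e-06). IER3, an early response gene, was lower at d37-39 (1.28 against 3.48 FPKM, adjusted p = 0.00204), whereas EGR1, an early growth response factor, was higher (9.29 against 5.64 FPKM, adjusted p = 0.0283). In XY littermates of d41-44, 11 of 49 were called (1 higher, 10 lower; 11.2% of all loci and 29.4% of annotated loci), among them MYC (12.7 against 26.2 FPKM, adjusted p = 0.0309) and the syndecan SDC3 (23.5 against 43.6 FPKM, adjusted p = 0.0308). At d37-39, 2 of 49 were called (1.29% of all loci), both given above.

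Between the sexes, the ligand FGF1 was higher in XX gonads at every age compared. It averaged 26.3 ± 6.4 FPKM in XX and 3.57 ± 0.556 FPKM in XY controls at d37-39 (adjusted p = 2.94e-08) and 32 against 4.02 FPKM at d44 (adjusted p = 8.43e-05). In the DSD pedigree it was 11.9 against 2.16 FPKM at d35, 25.1 against 4.19 FPKM at d37-39 and 34.4 against 5.58 FPKM at d41-44 (XX DSD against XY littermates, adjusted p = 0.00518, 8.13e-08 and 3.49e-06). Without C3575 the d35 difference had an adjusted p of 0.00156. DUSP5 was lower in XX gonads (1.79 against 5.95 FPKM in controls at d37-39, adjusted p = 8.9e-07), and ETV1, of the same ETS subfamily as ETV5, was lower in XX DSD gonads at d35 (7.8 against 16.4 FPKM in XY littermates, adjusted p = 4.27e-05; 2.37e-05 without C3575). Of 20 listed adaptors and RAS-MAPK genes, 15 were tested. XX controls had 0 higher and 7 lower at d37-39, and 0 higher and 4 lower at d44, where 13.8% and 12% of all loci were lower and 41.3% and 38.4% of annotated loci were called in either direction. In the DSD pedigree the counts were 1 and 1 at d35, 0 and 4 at d37-39 and 0 and 7 at d41-44 (21.4%, 7.49% and 28.3% of all loci called in either direction). The medians of this group at d37-39 were -0.21 in both pedigrees, against -0.02 in controls and -0.28 in the DSD pedigree over all loci tested.

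Over time, XX controls of d44 were above those of d37-39 in SULF2, a heparan sulfate 6-O-endosulfatase (52.2 against 25.2 FPKM, adjusted p = 0.00342). XX DSD gonads of d37-39 were above those of d35 in FGF1 (25.1 against 11.9 FPKM, adjusted p = 0.0216; 0.0279 without C3575). In XY littermates of d37-39 against d35, 6 genes were higher and 9 lower of 50 (11.5% of all loci and 39.4% of annotated loci called), with SOS1, the RAS exchange factor, at 17.8 against 7.93 FPKM (adjusted p = 0.000515) and the glypican GPC1 at 24.8 against 52.8 FPKM (adjusted p = 0.00774).

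The genes whose levels ran most like those of FGF9 were ENSCAFG00000013060 (Pearson r = 0.77), DOCK11 and DCN (0.74 each), CCNG2 (0.73) and ASPN (0.72), over the 53 single-embryo libraries and among 9387 named loci with a mean of at least 4 FPKM. Without C3575 the values were 0.66, 0.80, 0.56, 0.72 and 0.66. DUSP6 ran most like ELAVL4 (0.86), SOST (0.83), MAPK6 (0.82), PTPLAD1 (0.82) and CCL26 (0.81). The libraries share litters, age and sex, so these are descriptions with no test. None of the other 9 genes was among either set.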

How the data were processed

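The authors made unstranded TruSeq v2 libraries, pooled them for sequencing by group (at risk or control), read them as single ends, trimmed with cutadapt, mapped to CanFam3 with TopHat2 (version 2.0.13 in the submitters' notes) and assembled new loci with Cufflinks 2.2.1. The deposited values are FPKM scaled by Cuffnorm, with no counts. A second deposited FPKM table of 24581 annotated genes was used for FGF9 alone, since it was the only member whose identifier could be paired with its symbol there. Every value column belonged to a sample of the series.

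From these values limma 3.58.1 (R 4.3.3, eBayes with trend, two-sided) was fitted to log2(FPKM + 1) of the groups compared, over loci with a mean of at least 1 FPKM in a group, with Benjamini-Hochberg adjustment over all loci tested and a call at 0.05. All 10 loci passed the filter in each comparison. The script was tested on simulated data. Folds are ratios of mean FPKM.

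The genes and lists were chosen with earlier results of these data known. All 10 are named. Of the other listed pathway genes, up to 4 called genes per comparison with the largest difference and at least 1 FPKM qualified for naming. The 5 loci most like FGF9 and DUSP6 are named by Pearson r. Alternatives were pseudocounts of 0.1 and 4 FPKM, other filters and scalings, no trend, exact permutation, litter as a block, factor or mean, other groupings of days, homozygous embryos alone, all 10 groups in 1 fit, and each library left out. Annotated loci alone, leaving out C3575 and the receptor ratio were added after seeing the data. Embryos C3694, C3696 and C3691 (d41) were analyzed with the older group, as in the study. Litters were identified from the study's table of embryos.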

Additional observations from a re-analysis of the deposited data

Results flagged for a closer look

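In 4 of the 70 sets of 4 to 10 libraries examined (10 genes in each group of that size), 1 library was farther from its neighbors than Dixon's 95% limit allows, where chance gives about 1 in 20. Embryo C3575, an XX DSD gonad of d35, was the library apart in 2 of them. Its FGF9 level was 15.8 FPKM, against 5.71 to 9.12 FPKM in the other 8, and its FGFR3 level was 3.45 FPKM, against 8.45 to 11.8 FPKM. Among XY littermates of d35, C3574 had a DUSP6 level of 87.9 FPKM, against 58.2 to 61.7 FPKM in the other 3. Among XX DSD gonads of d41-44, C3688 had an FGFR2 level of 7.25 FPKM, against 4.44 to 5.26 FPKM in the other 5.

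The pedigree difference of FGFR3 at d41-44 differed between the sexes by the limma interaction term, at -0.93 (XX DSD minus XX control, less XY littermates minus XY control; adjusted p = 0.0228). All 6 XX DSD libraries were below all 3 XX controls, and all 3 XY littermates were below all 3 XY controls. Age went with pedigree in part in XX gonads and wholly in XY gonads (d41 and d42 against d44). Sequencing pool went with pedigree in XX gonads, and the pool of the XY littermates is not stated.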

How the results depend on the processing

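Of 4525 repeated fits of 180 single-gene differences, 4303 kept their side of the threshold (4126 with the same sign, 177 with the other sign and no call in either fit), 112 lost and 109 gained a call, and 1 reversed: FGFR1 in XX DSD against XX controls, -0.39 (adjusted p = 0.0163) among d37 embryos alone, 1 litter against 1 litter. No reported call changed sign. With a filter of 4 FPKM, 2 FGFR4 calls could not be tested. The cause of the shifts in counts below was not tested. Each count is of the 10 genes called.

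XX DSD against XX controls at d37-39 (1 as reported) gave 2 with median-of-ratios scaling, with annotated loci alone, with d41 embryos moved in and with all 10 groups in 1 fit, 3 with d37 alone, 4 with day as a covariate, 5 by exact permutation without adjustment, and 0 with litter as a random block or as 1 mean. At d41-44 (4) it gave 1 with litter means, 5 without trend, by permutation or with d41 embryos left out or moved, and 6 with annotated loci. XY littermates against XY controls gave 2 at d37-39 (0) with upper-quartile scaling, and at d41-44 (0) gave 3 with annotated loci, 4 with the litter block, of which litter means kept 0, and 1 with all groups. XX against XY controls at d37-39 (6) gave 1 with litter means. XX DSD against XY littermates gave 2 with litter as a factor, 1 with litter means and 7 with homozygous embryos alone at d35 (4), 3 without trend, 2 with litter means and 3 with homozygous embryos at d37-39 (5), and 2 at d41-44 (4) with litter as a factor, litter means, d41 embryos left out or moved, and all groups. The d41-44 interaction (1) gave 0 with all groups.

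Over time, XX controls (2) gave 0 without a filter, with the litter block, litter means or all groups, and 1 without trend or with d39 alone. XY controls (0) gave 2 by permutation. XX DSD gonads from d35 to d37-39 (0) gave 2 with upper-quartile scaling, permutation or all groups and 1 with annotated loci or d41 embryos moved. To d41-44 (1) they gave 0 without a filter, with upper-quartile scaling, without trend, with the litter block, litter means or homozygous embryos, 2 without d41 embryos or with all groups, 4 with annotated loci, 5 with d39 alone and 6 by permutation. XY littermates from d35 (3) gave 5 by permutation and 0 with litter means, and genotype (0) gave 2 by permutation.

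With each library left out in turn, the counts lay at 1 to 2 and 3 to 5 for XX DSD against XX controls at d37-39 and d41-44, 6 to 7 and 4 to 4 for XX against XY controls, 3 to 5, 3 to 5 and 2 to 4 for XX DSD against XY littermates, 0 to 3 for XX controls over time, 0 to 1 and 0 to 3 for XX DSD gonads over time, and 3 to 3 for XY littermates from d35. The other counts did not move (1 to 1 for the d41-44 interaction and 0 to 0 elsewhere).

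No paired analysis by replicate number was possible because the labels give none; litter, from the study's table, took its place. Scaling by upper quartiles put the median of annotated loci at -0.85 in XY littermates of d37-39 against d35, and the deposited scaling at -0.10. The 3-against-3 comparisons and the interactions had no permutation test, and the d44 controls were 1 litter. The tables hold no read counts, so counting error cannot be given, and FGFR4 is near the filter.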

Other observations

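The d34 pools enter no comparison. The XX pool had 4.39 FPKM of FGF9 and the XY pool 4.83 FPKM, inside or near the range of later ages. FGFR1 was above every single-embryo library, at 114 FPKM in the XX and 169 FPKM in the XY pool. SPRY4 was 4.74 FPKM in the XX pool and 17.9 FPKM in the XY pool, and DUSP6 80.5 and 105 FPKM. FGFR3 (17.6 FPKM in XX, 16.2 FPKM in XY) exceeded FGFR2 (8.39 and 12.6 FPKM) in both pools, unlike in XY gonads of d35 and later. FOXL2 was 6.95 FPKM in the XX pool and 2.68 FPKM in the XY pool. Each pool is 1 library with no replicate.

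Beside its FGF9 and FGFR3 levels, embryo C3575 had the highest SPRY1 (56.8 FPKM) and SPRY2 (59.3 FPKM) and the lowest FGFR1 (57.9 FPKM) of the 9 XX DSD gonads of d35, while DUSP6 (46.2 FPKM) and ETV5 (4.55 FPKM) lay inside the range of the other 8. Its steroid synthesis genes were low (CYP17A1 82.1 against 306 to 608 FPKM, STAR 43.2 against 95.3 to 275 FPKM), as were the endothelial genes PECAM1 (6.14 against 17 to 29 FPKM) and CDH5 (7.66 against 21.8 to 44.1 FPKM), whereas TEK lay inside the range (56.3 against 37.9 to 56.8 FPKM). Of the interstitial genes, TCF21 was high (71.6 against 15.7 to 57.6 FPKM), NR2F2 low (86 against 93.9 to 108 FPKM) and PDGFRA inside the range (53.6 against 37.6 to 69.2 FPKM). These 8 genes of the marker lists are examples chosen after their values were seen. Its relative depth was 0.25 of the deepest library, the lowest of its group.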
